A study of Mus musculus with 10 samples.

Results

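The clustered protocadherins are cell surface adhesion proteins of the cadherin superfamily, encoded by 3 neighbouring gene clusters, alpha, beta and gamma. They were taken here as all protein-coding genes of the deposited table named Pcdha, Pcdhb or Pcdhg with a number (Pcdhac, Pcdhga, Pcdhgb and Pcdhgc included). The rule found 57 of 53801 genes: 14 alpha, 22 beta and 21 gamma genes. Expression was measured by bulk RNA sequencing in 10 libraries of wild-type (WT) mouse cells from the dorsal brain, which the labels call neural stem cells. Progenitors had received StarTrack reporter plasmids, which mark their descendants, through in utero electroporation (IUE) on embryonic day 12. On embryonic day 14 the cells were dissociated, and FACS gave NG2+ (5 libraries) and GFAP+ cells (5 libraries), with 1 batch label for all. Cspg4 encodes NG2, a proteoglycan of oligodendrocyte precursors and pericytes, while GFAP belongs to the intermediate filaments of astroglia. The labels do not say whether the libraries of a group came from separate animals or litters, so p-values measure only the spread between these samples, which may be technical.

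Each alpha and each gamma gene has a variable exon of its own, with its own promoter, which is spliced to constant exons shared by the whole cluster. The variable exon encodes the extracellular, transmembrane and proximal cytoplasmic parts, and the constant exons encode the common end of the protein in the cytoplasm. Beta genes have no constant exon. In mature neurons each cell uses a small, largely random set of the variable alpha, beta and gamma promoters, chosen with the help of CTCF, cohesin and DNA methylation, while the C-type genes at the ends of the alpha and gamma clusters are used more uniformly. The proteins form dimers on a cell that bind the same combination on another, by which neurites of the same neuron recognise and avoid each other, and the gamma cluster is also known for its part in neuronal survival and in the branching of dendrites and astrocytes.

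All 57 genes lie on the plus strand of chromosome 18 (GRCm38) within 912 kb. The alpha genes span 36930184 to 37187661, the beta genes 37264938 to 37524479 and the gamma genes 37661793 to 37841873. On the GENCODE M21 annotation, whose exon lengths equalled the deposited gene lengths for all of them, a median of 53.6% of an alpha gene's exon bases were also covered by another gene (range 48.6% to 93.0%). The median was 45.2% for gamma genes (31.5% to 100%) and 0% for beta genes, where Pcdhb12 reached 63.5%. Beta genes were also distinct by sequence: a median of 99.8% of the 100-base words of their transcripts (92.3% to 100%) occurred in no other gene of the clusters. The corresponding medians were 44.6% for alpha and 56.4% for gamma genes. The sources used here do not give how the authors' counting treated reads in shared bases. The assignment of alpha and gamma reads to single genes is therefore uncertain, and without strand information reads of genes overlapping on opposite strands cannot be told apart.

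**Figure D1:**
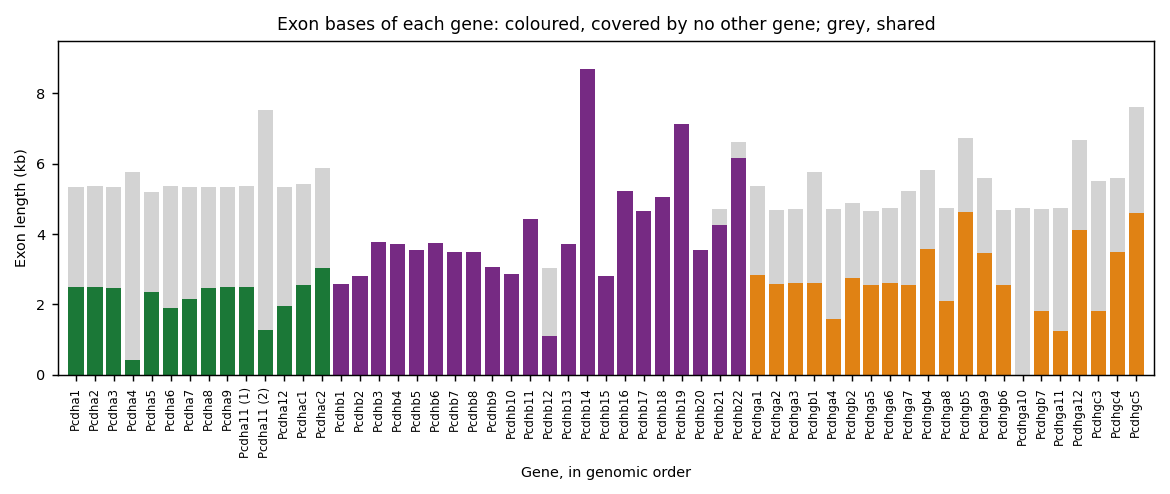
Exon length of each gene in kb (y axis), in genomic order (x axis), divided into bases covered by no other gene (coloured by cluster) and shared bases (grey). Alpha and gamma genes carry long shared parts, Pcdhga10 has 0 unshared bases, and most beta genes have no shared base. The 2 genes that share the symbol Pcdha11 are numbered.

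The 2 members with the fewest unshared bases had few reads. Pcdhga10, whose variable exon is covered by the antisense gene Gm26672, had 0 unshared exon bases and was listed with 4 reads over the 10 libraries, against 608 for Gm26672. Pcdha4, with 404 unshared bases, had 7 reads. Pcdhb12 with 1107 unshared bases had 49 reads, and the Pcdha11 gene starting at 37010712, with 1268, had 116. Few unshared bases did not always go with few reads, since Pcdhga11 with 1256 had 1910 reads. The part of the overlap in these low counts was not tested. The predicted genes Gm42416, Gm37013 and Gm37388, whose exons overlap those of several alpha or gamma genes, were listed at 0 reads. The 2 genes named Pcdha11 start at 37005203 (ENSMUSG00000007440) and at 37010712 (ENSMUSG00000102206). The second shares 83.2% of its exon bases, also with the predicted genes Gm10544 and Gm10545. Pcdhgb8 is annotated as a polymorphic pseudogene and is not among the 57 genes; it had 99 reads in all.

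Library totals ranged from 12945436 to 17569730 read counts, of which 3123 to 4906 fell on the 57 genes. Cspg4, which checks the sort, stood at 1.07 ± 0.356 CPM in the GFAP and 6.75 ± 1.47 CPM in the NG2 libraries (CPM are reads scaled by library total and TMM factor, mean ± SD, n = 5 each). Gfap had 16 reads in all (GFAP group 0.128 ± 0.170 CPM, NG2 group 0.0821 ± 0.148 CPM), so the defining marker of the GFAP+ label was close to absent from both groups. NG2 replicate 5 stood apart: it had reads for 18903 genes against 22988 to 24444 in the other libraries, and its log2 CPM correlated with theirs at 0.919 to 0.929 across genes. Fold changes of the named members and the medians of clusters and gene lists below are also given without it. Of 10 neuronal markers such as Tubb3 and Neurod6, 10 had a positive log2 fold change (NG2 minus GFAP), with a median of 0.29 (0.37 without NG2 replicate 5) and summed levels of 4218 to 5513 CPM in the GFAP and 5251 to 7315 CPM in the NG2 libraries. Of 10 radial glia markers such as Nes and Pax6, 10 had a negative one, with a median of -0.28 (-0.34 without NG2 replicate 5) and summed levels of 1503 to 2161 CPM against 976 to 1648 CPM. Every gene of both lists had reads, and 0 of them passed by edgeR, where 0.148% of all genes passed. At an unadjusted p below 0.05 by edgeR there were 5 neuronal genes, all positive, and 4 radial glia genes, all negative. Of all genes 6.45% were positive and 6.33% negative at that p. DESeq2 called 3 neuronal genes and 1 radial glia gene, against 2.66% of all genes. For DESeq2, here and below, all genes are the 13006 to which it gave an adjusted p. Voom with sample weights called 3 and 0, against 8.9% of all genes. The 9 other marker lists had median log2 fold changes from -0.73 (meninges) to 0.99 (microglia), or -1.02 to 0.85 without NG2 replicate 5. Of the microglia genes 6 were positive and 0 negative, with summed levels of 28.0 to 110 CPM in the GFAP and 16.3 to 224 CPM in the NG2 libraries. Of the meninges genes 0 were positive and 5 negative, at 9.92 to 20.2 against 3.14 to 15.8 CPM. Cspg4 was the 1 gene of these 9 lists to pass by edgeR. DESeq2 also called Btg2 and Eomes of intermediate progenitors and Gja1 of astrocytes, and voom called 2 intermediate progenitor genes, 1 astrocyte gene and 1 erythroid gene beside Cspg4. The shares of all genes given above for each tool apply here too. In bulk samples fewer cells of a type and less RNA per cell cannot be told apart.

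The gamma cluster gave most of the clustered protocadherin reads in every library. Levels of different genes were compared per length, as deposited FPKM (reads scaled for exon length and library total). The highest mean over the 10 libraries was 4.51 ± 0.950 FPKM, for Pcdhgb6 (SD, n = 10). It was followed by Pcdhgc4 at 3.99 ± 0.993, Pcdhga12 at 3.42 ± 0.877, Pcdhgc3 at 3.23 ± 0.595, Pcdhga11 at 2.62 ± 0.602 and Pcdhga7 at 2.16 ± 0.605 FPKM. Neighbours in this order differed by less than their SD, except Pcdhgc3 and Pcdhga11, which lay slightly further apart than the SD of either. The highest beta gene was Pcdhb7 at 1.93 ± 0.625 FPKM and the highest alpha gene was Pcdhac2, the last gene of its cluster, at 1.72 ± 0.480 FPKM. The medians over genes were 0.314 FPKM for the alpha, 0.399 FPKM for the beta and 1.11 FPKM for the gamma cluster.

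Since FPKM divides by the whole exon length, shared part included, the order was also taken per kb of unshared exon, for the 55 genes with at least 500 such bases. All reads listed for a gene were divided by its unshared bases alone. The scale is a level per length only if no read in shared bases was counted, which is not known. Otherwise it is too high for genes with long shared parts. The medians were then 0.693 CPM per kb for alpha, 0.403 for beta and 2.61 for gamma genes, so that alpha stood above beta on this scale and below it in FPKM. Pcdhga11 was highest at 10.0 CPM per kb, followed by Pcdhgc3 at 9.84 and Pcdhgb6 at 8.32. Of the 10 highest genes by FPKM, 8 were also among the 10 highest by this measure. The orders correlated at a Spearman rho of 0.935 across 55 genes, which share libraries and the numerator.

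Levels followed position in the alpha and gamma clusters more than in the beta cluster. In the alpha cluster, genes nearer the constant exons had higher FPKM (Spearman rho of start position and FPKM 0.66 across 14 genes, and 0.71 per unshared kb across 13). The corresponding values were 0.40 across 21 and 0.49 across 20 genes in the gamma cluster, and 0.02 across 22 genes in the beta cluster on both scales. These are descriptions across genes that share libraries.

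**Figure D2:**
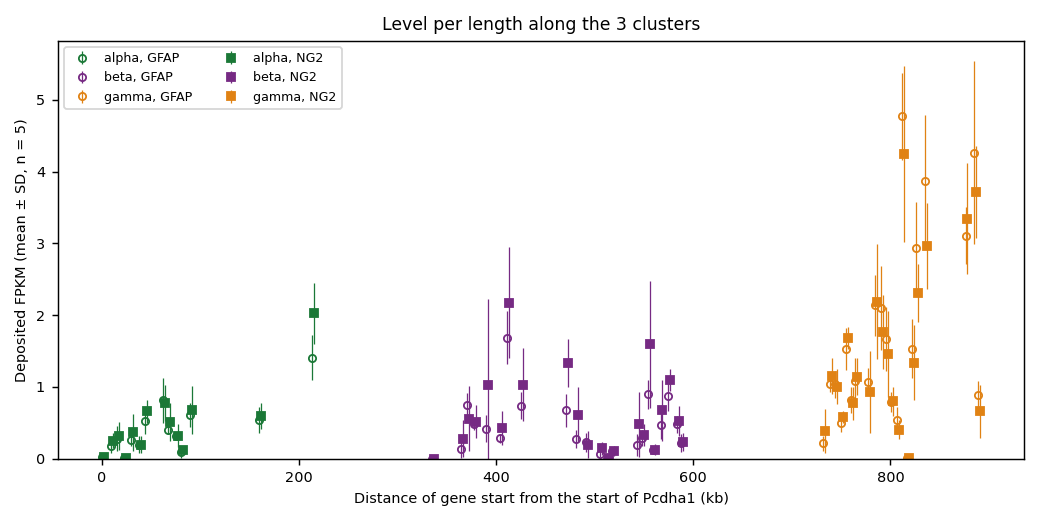
Deposited FPKM (y axis, mean ± SD, n = 5 per group) against the distance of each gene's start from that of Pcdha1 in kb (x axis), with open circles for GFAP and filled squares for NG2 libraries. The gamma genes in the later part of their cluster reach the highest levels, up to 4.51 FPKM over all libraries, and the highest beta and alpha genes reach 1.93 and 1.72 FPKM.

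At the low end, Pcdhb1 had 0 reads in all 10 libraries, which allows a level of up to 0.0197 CPM (3 counts over all libraries, counting error only). Pcdhb1 is a divergent beta gene whose promoter is known to lack the conserved element that binds CTCF. Pcdhb13 had 2 reads, in NG2 replicates 3 and 4. Together with Pcdha1, Pcdha4, Pcdhb12, Pcdhb15, Pcdhb18 and Pcdhga10 these 8 genes did not pass the expression filter of edgeR, which left 49 tested genes: 12 alpha, 17 beta and 20 gamma. Those named here beyond the rule in the processing notes were chosen after their values were seen.

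No clustered protocadherin passed an adjusted p of 0.05 between NG2 and GFAP libraries. With edgeR's quasi-likelihood test and Benjamini-Hochberg adjustment, as in all adjusted p values of edgeR below, 24 of all 16187 tested genes passed (0.148%), 12 higher in NG2 (0.0741%) and 12 lower (0.0741%), and 0 of the 49 members did. The lowest adjusted p of a member was 0.230, for Pcdhb9. At an unadjusted p below 0.05 there were 4 members with a positive and 0 with a negative log2 fold change, or 8.16% of the 49, against 12.8% of all tested genes (6.45% positive and 6.33% negative). Among the 8365 tested genes in the members' range of mean level the share was 9.70% (322 positive and 489 negative genes). Without NG2 replicate 5 the count of members was 6 (4 positive and 2 negative) against 17.3% of all genes, and again 0 members passed after adjustment, against 0.71% of all genes. In 0 of the 49 genes were the 5 NG2 libraries all above or all below the 5 GFAP libraries, against 3.28% of all genes (1.52% above and 1.76% below). Of the 8365 genes in the members' range, 85 lay all above and 133 all below. Without NG2 replicate 5 the count of members was also 0, against 6.3% of all genes and 419 of the 8365.

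Most alpha and beta genes had small positive differences, while gamma genes had small differences in both directions. Log2 fold changes, NG2 minus GFAP, were positive for 10 of 12 alpha genes (median 0.25), 14 of 17 beta genes (median 0.36) and 8 of 20 gamma genes (median -0.14). Over all tested genes 48.5% were positive, with a median of -0.01. Among the 8365 tested genes in the members' range of mean level, 41.6% were positive, with a median of -0.08. With all libraries the gamma cluster lay near these genes. Their range was set over all tested members, so it was not matched to the level of the gamma or any other single cluster. Without NG2 replicate 5 the counts were 11 of 12, 16 of 17 and 10 of 20, and the medians 0.35, 0.30 and -0.05, with 47.9% of all genes positive. Of the 8365 genes in the members' range 3341 were then positive, with a median of -0.10. These counts are a description: genes of a cluster share libraries, and alpha and gamma genes also share exons, so they are not independent replicates. The difference between the clusters was not tested.

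**Figure D3:**
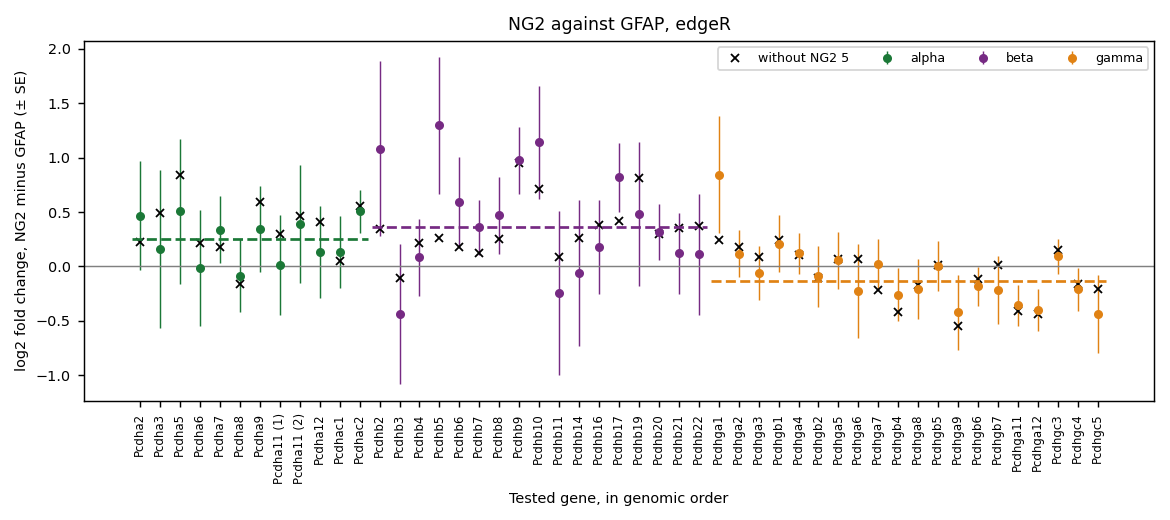
Log2 fold change (NG2 minus GFAP, edgeR, ± SE; y axis) for the 49 tested genes in genomic order (x axis), coloured by cluster, with dashed lines at the cluster medians of 0.25, 0.36 and -0.14 and crosses for the value without NG2 replicate 5. Most error bars cross or approach 0, and the widest belong to low beta and alpha genes.

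The C-type genes were Pcdhac1, Pcdhac2, Pcdhgc3, Pcdhgc4 and Pcdhgc5. Pcdhac2, known for its part in the tiling of serotonergic axons, stood at 11.5, 6.72, 7.13, 8.82 and 7.97 CPM in GFAP replicates 1 to 5 and at 12.6, 15.9, 9.32, 11.6 and 10.5 CPM in NG2 replicates 1 to 5. GFAP replicate 1 lay among the NG2 libraries, and the other 4 GFAP libraries lay below all 5 NG2 libraries. Its means were 8.42 ± 1.88 CPM over the GFAP libraries and 11.998 ± 2.51 CPM over the NG2 libraries (SD, n = 5 each), and it had a log2 fold change of 0.51 (SE 0.20, adjusted p = 0.313 by edgeR, with a log2 fold change of 0.56 without NG2 replicate 5). Pcdhac1 stood at 3.72, 1.57, 2.96, 4.13 and 2.38 CPM in GFAP replicates 1 to 5 and at 3.55, 4.27, 2.02, 2.32 and 4.00 CPM in NG2 replicates 1 to 5. These ranges overlapped widely, with a log2 fold change of 0.13 (SE 0.33, adjusted p = 0.908 by edgeR, with a log2 fold change of 0.05 without NG2 replicate 5). Together the 2 alpha C-types made up 4.28% ± 0.539 of the clustered protocadherin CPM in the GFAP libraries (3.65% to 5.08%) and 5.67% ± 0.526 in the NG2 libraries (5.22% to 6.55%), so the groups did not overlap in this share. Their summed CPM did overlap, at 8.29 to 15.2 against 11.3 to 20.2.

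Of the gamma C-types, Pcdhgc4, which is known to be needed for the survival of neurons, stood at 21.8, 14.7, 21.9, 33.2 and 29.5 CPM in GFAP replicates 1 to 5 and at 25.9, 20.9, 16.9, 22.7 and 18.3 CPM in NG2 replicates 1 to 5. The NG2 libraries lay inside the range of the GFAP libraries. The group means were 24.2 ± 7.25 CPM over the GFAP libraries and 20.9 ± 3.56 CPM over the NG2 libraries (SD, n = 5 each), with a log2 fold change of -0.21 (SE 0.20, adjusted p = 0.697 by edgeR, with a log2 fold change of -0.16 without NG2 replicate 5). Pcdhgc3, a partner of Axin1 and a regulator of dendrite branching, stood at 21.04, 16.5, 15.1, 16.4 and 17.7 CPM in GFAP replicates 1 to 5 and at 16.9, 25.9, 15.7, 18.4 and 15.7 CPM in NG2 replicates 1 to 5. NG2 replicate 2 was the highest of the 10, while the other 4 NG2 libraries lay within the GFAP range. Its log2 fold change was 0.09 (SE 0.16, adjusted p = 0.861 by edgeR, with a log2 fold change of 0.15 without NG2 replicate 5), and -0.06 without NG2 replicate 2. Pcdhgc5, which binds a subunit of the GABA-A receptor, stood at 6.22, 5.21, 6.22, 7.07 and 9.40 CPM in GFAP replicates 1 to 5 and at 8.73, 2.75, 5.35, 6.65 and 1.75 CPM in NG2 replicates 1 to 5. Here NG2 replicates 2 and 5 were the lowest and the others overlapped with the GFAP libraries. It had a log2 fold change of -0.44 (SE 0.36, adjusted p = 0.649 by edgeR, with a log2 fold change of -0.21 without NG2 replicate 5).

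Among the variable alpha genes, the highest by FPKM were Pcdha8, Pcdha12 and Pcdha7. Alpha proteins contribute to the recognition code and are known to need a beta or gamma partner to reach the cell surface. Pcdha8 stood at 6.04, 1.76, 4.17, 5.74 and 4.29 CPM in GFAP replicates 1 to 5 and at 4.78, 2.62, 2.78, 5.46 and 5.07 CPM in NG2 replicates 1 to 5. The groups overlapped, with a log2 fold change of -0.08 (SE 0.34, adjusted p = 0.947 by edgeR, with a log2 fold change of -0.16 without NG2 replicate 5). Pcdha12 stood at 4.51, 3.27, 2.35, 3.85 and 2.52 CPM in GFAP replicates 1 to 5 and at 4.98, 4.96, 3.89, 3.70 and 0.620 CPM in NG2 replicates 1 to 5, where NG2 replicate 5 was the lowest of the 10 libraries, and it had a log2 fold change of 0.13 (SE 0.42, adjusted p = 0.932 by edgeR, with a log2 fold change of 0.41 without NG2 replicate 5). Pcdha7 stood at 3.23, 1.57, 1.97, 3.36 and 3.88 CPM in GFAP replicates 1 to 5 and at 2.93, 2.89, 3.55, 3.32 and 5.02 CPM in NG2 replicates 1 to 5, where NG2 replicate 5 was the highest, and had a log2 fold change of 0.34 (SE 0.31, adjusted p = 0.690 by edgeR, with a log2 fold change of 0.18 without NG2 replicate 5). The remaining tested alpha genes had mean levels of 0.681 to 2.74 CPM and log2 fold changes of -0.02 to 0.51.

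The 4 members with the smallest unadjusted p among positive differences were 3 beta genes and Pcdhac2. Pcdhb9 stood at 1.71, 1.88, 1.37, 2.24 and 3.20 CPM in GFAP replicates 1 to 5 and at 2.66, 5.51, 3.76, 4.20 and 4.34 CPM in NG2 replicates 1 to 5. The NG2 libraries were mostly higher: 4 of 5 lay above all GFAP libraries, and NG2 replicate 1 lay below GFAP replicate 5. The means were 2.08 ± 0.701 CPM over the GFAP libraries and 4.09 ± 1.03 CPM over the NG2 libraries (SD, n = 5 each), with a log2 fold change of 0.97 (SE 0.31, adjusted p = 0.230 by edgeR, with a log2 fold change of 0.95 without NG2 replicate 5). Pcdhb9 was the 1 member that passed by DESeq2, at an adjusted p of 0.0485, against 2.66% of the 13006 genes with an adjusted p by that tool. Several tested members with low counts, such as Pcdhb10 and Pcdha5, had no adjusted p there. In the authors' deposited table, none of the 57 genes had an adjusted p below 0.05, and Pcdhb9 had the lowest, at 0.0507.

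Pcdhb17 stood at 5.67, 3.45, 3.26, 4.34 and 4.43 CPM in GFAP replicates 1 to 5 and at 5.12, 6.06, 6.95, 4.45 and 14.8 CPM in NG2 replicates 1 to 5. NG2 replicate 5 was far above the other 9 libraries, and without it the log2 fold change of 0.82 (SE 0.32, adjusted p = 0.311 by edgeR) was 0.42. Pcdhb10 stood at 1.22, 0.691, 0.607, 1.12 and 0.340 CPM in GFAP replicates 1 to 5 and at 1.57, 1.79, 1.46, 0.439 and 3.55 CPM in NG2 replicates 1 to 5. NG2 replicate 4 was the lowest NG2 library and NG2 replicate 5 the highest of all. Its log2 fold change was 1.14 (SE 0.52, adjusted p = 0.381 by edgeR, with a log2 fold change of 0.71 without NG2 replicate 5). Pcdhb7, the highest beta gene per length, stood at 7.87, 5.71, 4.17, 6.30 and 5.85 CPM in GFAP replicates 1 to 5 and at 4.98, 6.61, 7.37, 7.09 and 12.3 CPM in NG2 replicates 1 to 5. Again NG2 replicate 5 was highest, and the other NG2 libraries lay within the GFAP range. Its log2 fold change was 0.36 (SE 0.25, adjusted p = 0.592 by edgeR, with a log2 fold change of 0.12 without NG2 replicate 5).

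Among the variable gamma genes, Pcdhga12 and Pcdhga11 had the smallest unadjusted p of the negative differences. Pcdhga12 stood at 27.6, 15.8, 26.9, 32.5 and 28.3 CPM in GFAP replicates 1 to 5 and at 23.5, 19.4, 13.1, 21.1 and 21.9 CPM in NG2 replicates 1 to 5. GFAP replicate 2 lay within the NG2 range, and the other 4 GFAP libraries lay above all NG2 libraries. The means were 26.2 ± 6.24 CPM over the GFAP libraries and 19.8 ± 4.02 CPM over the NG2 libraries (SD, n = 5 each), with a log2 fold change of -0.40 (SE 0.19, adjusted p = 0.405 by edgeR, with a log2 fold change of -0.43 without NG2 replicate 5). Pcdhga11 stood at 16.2, 10.05, 13.7, 12.6 and 18.1 CPM in GFAP replicates 1 to 5 and at 12.7, 11.4, 8.07, 10.3 and 12.6 CPM in NG2 replicates 1 to 5. The order was similar but 2 GFAP libraries, replicates 2 and 4, lay within the NG2 range. Its log2 fold change was -0.36 (SE 0.19, adjusted p = 0.446 by edgeR, with a log2 fold change of -0.41 without NG2 replicate 5). Of its exon bases 73.6% were shared, also with the antisense gene Gm26672, which had a log2 fold change of 0.01.

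Pcdhgb6, the highest member by FPKM, stood at 26.5, 18.6, 21.9, 24.1 and 22.2 CPM in GFAP replicates 1 to 5 and at 22.9, 28.6, 14.8, 17.00 and 16.6 CPM in NG2 replicates 1 to 5. NG2 replicate 2 was the highest of all and NG2 replicate 3 the lowest, so the groups overlapped, with a log2 fold change of -0.18 (SE 0.18, adjusted p = 0.712 by edgeR, with a log2 fold change of -0.12 without NG2 replicate 5). Pcdhgb4 stood at 14.2, 6.59, 13.1, 15.7 and 12.4 CPM in GFAP replicates 1 to 5 and at 11.9, 9.57, 7.44, 7.84 and 14.8 CPM in NG2 replicates 1 to 5. GFAP replicate 2 was the lowest of the 10, and the other 4 GFAP libraries lay above all NG2 libraries but replicate 5, with a log2 fold change of -0.26 (SE 0.24, adjusted p = 0.695 by edgeR, with a log2 fold change of -0.42 without NG2 replicate 5). Pcdhga7 stood at 12.4, 8.29, 9.56, 12.7 and 13.5 CPM in GFAP replicates 1 to 5 and at 11.9, 9.92, 8.55, 8.34 and 18.7 CPM in NG2 replicates 1 to 5. NG2 replicate 5 was highest, and the log2 fold change was 0.02 with it and -0.22 without it. Pcdhgb7 (log2 fold change -0.21, or 0.01 without NG2 replicate 5), Pcdhga9 (-0.42, or -0.55) and Pcdhgb1 (0.21, or 0.24) also overlapped between the groups, at adjusted p values of 0.818, 0.644 and 0.786 (edgeR, Benjamini-Hochberg).

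A fit with another tool and with weights for the libraries gave other calls, and the part of each in them was not tested. With voom and sample weights, 4 members passed against 8.9% of all genes (1441): Pcdhb9 with a positive difference (adjusted p = 0.0194), and Pcdhga12 (0.0397), Pcdhga11 (0.0402) and Pcdhgb4 (0.0201) with negative ones. That fit gave NG2 replicate 4 a weight of 6.30 and NG2 replicate 5 a weight of 0.170, while the other 8 libraries had weights of 0.349 to 2.02.

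**Figure D4:**
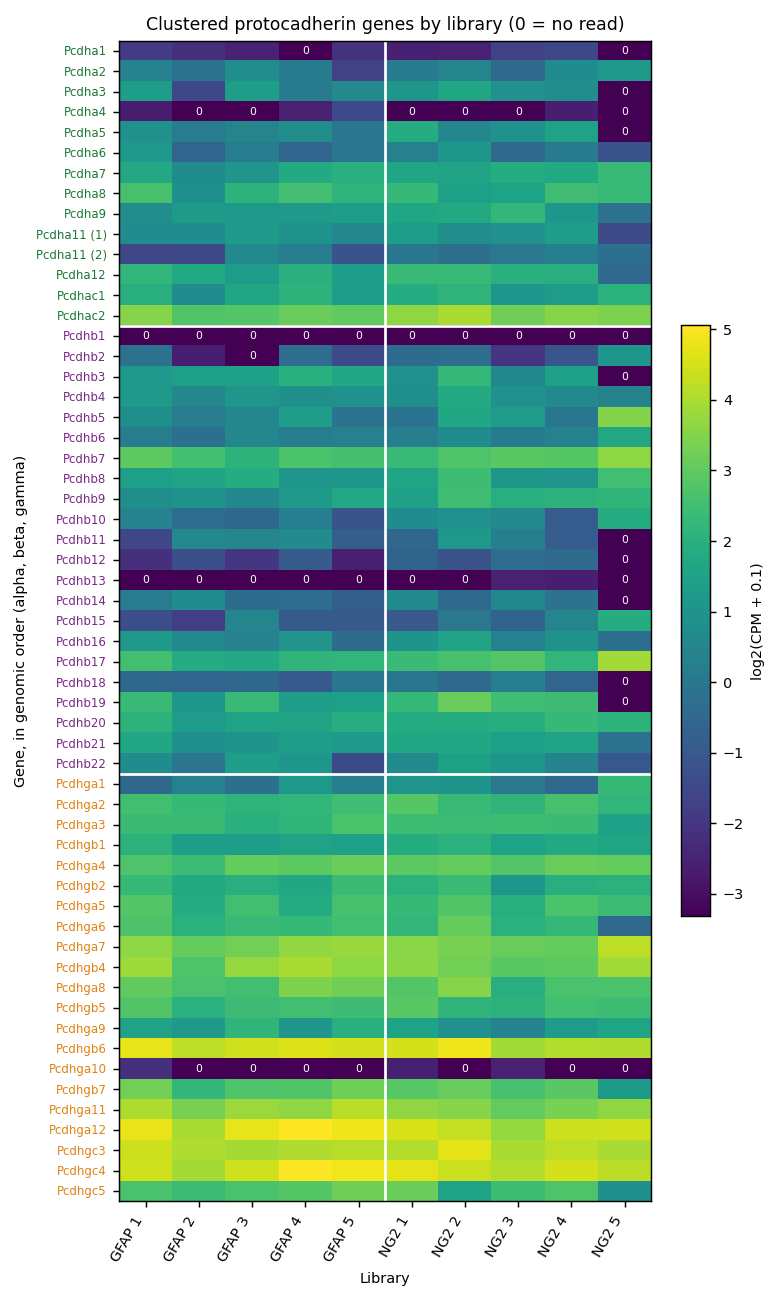
log2(CPM + 0.1) (colour scale) of the 57 genes (rows, in genomic order, labels coloured by cluster) in the 10 libraries (columns), with 0 written where a gene had no read. The gamma genes in the lowest rows are brightest, and the NG2 5 column has zeros in 13 genes against 2 to 5 in each of the other columns.

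The share of the gamma cluster in the clustered protocadherin CPM was lower in NG2 than in GFAP libraries. It was 71.4%, 72.2%, 72.9%, 73.6% and 77.5% in GFAP replicates 1 to 5 and 69.9%, 64.8%, 62.2%, 67.3% and 63.6% in NG2 replicates 1 to 5. All 5 NG2 libraries lay below all 5 GFAP libraries, at 65.6% ± 3.07 against 73.5% ± 2.39 (SD, n = 5 each). A share over the members carries no test here, since the members were chosen with earlier results of these data known. Per kb of unshared exon the gamma share was 70.5% (67.6% to 73.3%) against 77.4% (75.8% to 81.0%). This value weights the same counts by a fixed length per gene, so its lack of overlap is not a separate check. The summed gamma level itself overlapped between the groups (NG2 175 ± 26.2 CPM, GFAP 195 ± 32.2 CPM).

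The beta share was 20.1% ± 4.09 in the NG2 libraries (14.9% to 25.3%) and 14.6% ± 1.64 in the GFAP libraries (12.2% to 16.7%). NG2 replicate 1 lay within the GFAP range and the other 4 NG2 libraries above it. The summed beta level was 53.3 ± 11.9 CPM against 38.3 ± 5.03 CPM. The alpha share was 14.3% ± 1.89 in the NG2 (11.04% to 15.7%) and 11.8% ± 1.22 in the GFAP libraries (10.3% to 13.5%). NG2 replicate 5 lay within the GFAP range and the other 4 NG2 libraries above it, at 14.3% to 15.7%. Summed over all 57 genes, the level was 266 ± 33.6 CPM for the NG2 group and 264 ± 41.3 CPM for the GFAP group. The summed neuronal markers given above had a higher range in the NG2 libraries and the radial glia markers a lower one, and both ranges overlapped with those of the GFAP libraries. The part of these or of the other cell types in the shares was not tested.

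**Figure D5:**
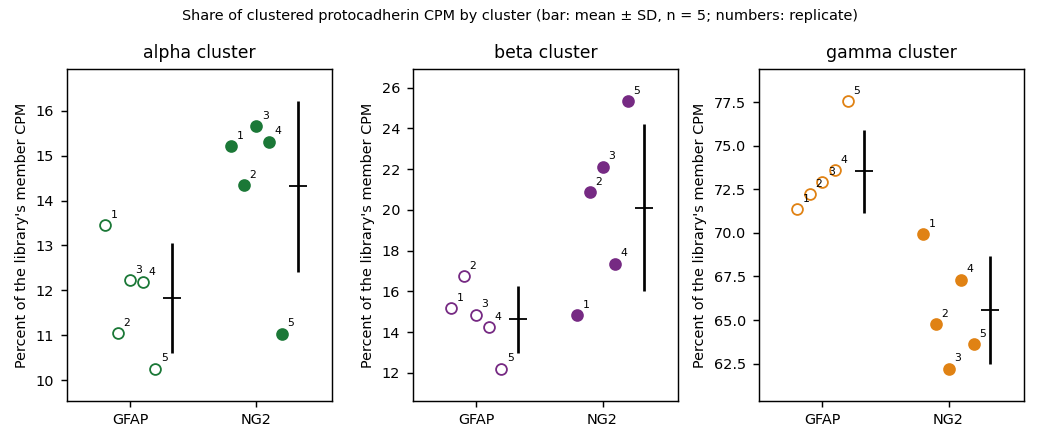
Percent of each library's clustered protocadherin CPM that came from the alpha, beta and gamma clusters (y axes, each with its own range that does not start at 0), as points numbered by replicate beside the group mean ± SD (n = 5). The gamma share is lower in all NG2 libraries, up to 69.9%, than in any GFAP library, from 71.4%.

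Within the gamma cluster the makeup over all 10 libraries differed between the groups by less than the SD of either. Gamma-A genes gave 47.0% ± 1.05 of gamma reads over the GFAP libraries and 46.5% ± 3.16 over the NG2 libraries, gamma-B genes 28.1% ± 1.88 and 28.0% ± 1.65, and gamma C-types 24.9% ± 1.59 and 25.5% ± 2.87. This rested on NG2 replicate 5: without it the NG2 libraries were at 45.2% ± 0.825 for gamma-A genes, 28.2% ± 1.81 for gamma-B genes and 26.6% ± 1.497 for gamma C-types (SD, n = 4), and the gaps for gamma-A genes and C-types exceeded the SD of either group. The 6 genes with the highest FPKM, all of the gamma cluster, made up 42.0% to 45.7% of the clustered protocadherin CPM in the GFAP libraries and 35.5% to 40.2% in the NG2 libraries, without overlap. They hold a large part of the gamma share above, so this is the same difference seen in its largest members. Within the alpha cluster Pcdhac2 was the highest contributor in all 10 libraries, with 23.0% to 36.0% of alpha reads.

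NG2 replicate 5 had fewer clustered protocadherins with reads. It had reads for 44 of the 57 genes, against 52 to 55 in the other libraries. Of the 49 tested genes, Pcdha3, Pcdha5, Pcdhb3, Pcdhb11, Pcdhb14 and Pcdhb19 were at 0 in this library alone, where 0 reads allow up to 0.169 CPM. These 6 genes, 12.2% of the members, compare with 9.89% of the 8365 tested genes in the same range of mean level and 5.32% of all tested genes at 0 there. Pcdhb19 stood at 4.71 to 8.61 CPM in the other 4 NG2 libraries. NG2 replicate 5 was the highest library for 22.4% of the 49 members and the lowest for 32.7%, against 19.8% and 27.4% of all tested genes, so these shares lay near those of the whole table.

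Other beta genes were high in the same library. Pcdhb5 stood at 11.2 CPM there, 6.23 times the mean of the other 4 NG2 libraries (1.79 CPM). Pcdhb15 was 4.47 times, Pcdhb2 4.30 times, Pcdhb10 2.70 times, Pcdhb6 2.65 times and Pcdhb17 2.62 times that mean. Single gamma genes departed from it in both directions. Pcdhga1 was 3.56 times that mean, while Pcdhga6 was 0.115 times, Pcdhgc5 0.297 times and Pcdhgb7 0.306 times. The effective number of genes (the exponential of the Shannon entropy of their reads, which is the number of equally used genes that would give the same evenness) was 9.53 for the beta cluster in NG2 replicate 5, against 13.5 to 15.9 in the other 9 libraries. For the alpha cluster it was 6.05 against 8.33 to 10.4, and for the gamma cluster 14.9 against 14.4 to 16.0. By this number the gamma cluster was within the range of the other libraries, and the alpha and beta clusters below it.

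Libraries of a group spread more in alpha and beta than in gamma genes. The gamma genes also had higher levels (median 1.11 FPKM, against 0.314 for alpha and 0.399 for beta genes). The median biological coefficient of variation from edgeR was 0.467 for alpha, 0.449 for beta and 0.276 for gamma genes, and 0.364 over the 49 members. It was 0.198 over all tested genes and 0.347 over the 8365 tested genes in the members' range of mean level, so the members lay near genes of like level. Without NG2 replicate 5 the medians were 0.323, 0.325 and 0.232 for the clusters, 0.277 for the members and 0.274 for genes of like level. The 11 tested nonclustered protocadherins, which are encoded by separate genes, had a median of 0.235. Neither the single clusters nor this list were matched for level, and the part of level in these differences was not tested.

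Of 20 regulators of protocadherin promoter choice (CTCF, cohesin and its loaders, DNA methyltransferases and silencing factors), 0 passed by edgeR, 1 by DESeq2 (Pds5a) and 4 by voom with sample weights, where 0.148%, 2.66% and 8.9% of all genes passed. Their log2 fold changes were negative for 17 and positive for 3, with a median of -0.11 (-0.14 without NG2 replicate 5). At an unadjusted p below 0.05 there were 5, all negative, where 6.33% of all genes were negative at that p: the cohesin regulators Pds5a and Nipbl, the cohesin subunits Stag1 and Stag2, and the methyltransferase Dnmt3b, which methylates clustered protocadherin promoters. Pds5a stood at 94.1 ± 8.64 CPM in the GFAP and 69.7 ± 7.49 CPM in the NG2 libraries (log2 fold change -0.43, SE 0.10, adjusted p = 0.122 by edgeR), and these 5 were chosen after their values were seen. The highest of the list were the demethylase Kdm1a (log2 fold change 0.00, SE 0.09) and the silencing cofactor Trim28 (-0.07, SE 0.11). Ctcf itself stood at 204 ± 9.12 and 196 ± 23.5 CPM, with a log2 fold change of -0.06 (SE 0.09).

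Of 17 genes for partners of the proteins in signalling, among them the WAVE complex that organises actin, 16 were tested, and 0 passed by edgeR, DESeq2 or voom (2 had an unadjusted p below 0.05 by edgeR, as did 12.8% of all genes). Log2 fold changes were positive for 13 and negative for 3, with a median of 0.08 (0.09 without NG2 replicate 5). The highest were Marcks, a substrate of protein kinase C in the gamma pathway (-0.22, SE 0.09), and the kinase Fyn (0.20, SE 0.09). Of 13 nonclustered protocadherins 11 were tested, and 0 passed by edgeR or DESeq2 and 2 by voom, where 8.9% of all genes passed (1 at an unadjusted p below 0.05 by edgeR, against 12.8% of all genes), with 5 positive, 6 negative and a median of -0.04, which was -0.36 without NG2 replicate 5. The highest were Pcdh9 (log2 fold change -0.04, SE 0.17) and Pcdh8 (0.39, SE 0.15). Of the 47 other genes within 200 kb of the clusters or between them 23 were tested, and 0 passed by any of the 3 tools (2 at an unadjusted p below 0.05 by edgeR, against 12.8% of all genes), with 15 positive, 8 negative and a median of 0.07 (0.11 without NG2 replicate 5), among them the highest ones Ik (-0.14, SE 0.10) and Hdac3 (0.20, SE 0.11).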

How the data were processed

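Per the labels' protocols, RNA was amplified with SMARTer chemistry, enriched for poly(A) and sequenced as paired ends. Per the submitters' processing notes, HISAT2, featureCounts 1.5.0-p3 and GRCm38.p6 were used. The sources used here do not give the strand and multiple-overlap settings. The deposited counts are whole read counts per gene. The deposited FPKM values are counts scaled for exon length and library total. The authors' table also holds a log2 fold change with its p-value and the adjusted one, per the file headers.

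Counts of all 53801 genes were tested with edgeR 4.0.16 (R 4.3.3): quasi-likelihood, TMM, default filter by group, Benjamini-Hochberg adjustment over 16187 genes, threshold 0.05. The script was checked on simulated data. Alternatives were DESeq2 1.42.0, voom with sample weights and limma-trend on FPKM (limma 3.58.1), other scalings and filters, a replicate block, and each library left out. Exon sharing was counted on GENCODE M21 (GRCm38). Intervals for 0 reads cover counting error only. Amplified reads without molecular identifiers are not independent molecules. Promoter and protein sequences of the members were not analysed here.

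The members and lists were chosen with earlier results of these data known. Named members were the C-type genes, the 3 highest and the lowest by FPKM among alpha, beta, gamma-A and gamma-B genes, and the 4 with the smallest unadjusted p in each direction. From each list of related genes or neighbours, genes past the threshold or else the 2 with the highest mean CPM were named.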

Additional observations from a re-analysis of the deposited data

Results flagged for a closer look

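In groups of 5 libraries, a library was singled out when its gap to the nearest other library exceeded 0.71 of the group's range, Dixon's 95% critical value. Of the 70 groups checked, 12 had such a library. The critical value stands for about 1 in 20 only with independent values without ties. The groups overlap, and some hold tied counts or few reads, so 12 of 70 cannot be set against that rate. NG2 replicate 5 accounted for 5 of the 12. In it Pcdhb17 stood at 14.8 CPM (4.45 to 6.95 in the other NG2 libraries), the alpha cluster made up 11.04% of the clustered protocadherin CPM (14.3% to 15.7%), and 10 alpha genes had a read (13 to 14). The effective number of beta genes there was 9.53 (14.5 to 15.8), and 14 beta genes had a read (20 to 21). This library also had the fewest genes with reads in the whole table, and the part of that in these values was not tested.

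The other 7 concern single genes or counts of genes. Pcdhgc3 stood at 25.9 CPM in NG2 replicate 2, against 15.7 to 18.4 CPM in the other NG2 libraries. Pcdhgb1 stood at 4.15 CPM in GFAP replicate 1, against 2.50 to 2.73 CPM in the other GFAP libraries. Pcdha4 stood at 0.272 CPM in GFAP replicate 5 and at 0.0627 CPM in NG2 replicate 4, and Pcdhga10 at 0.122 CPM in GFAP replicate 1, all from a handful of reads. In GFAP replicate 3, 19 beta genes had a read against 20 in each other GFAP library, and in GFAP replicate 1, 21 gamma genes against 20.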

How the results depend on the processing

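The main counts over all genes, 12 higher and 12 lower in NG2, depended on the setting: 58 and 37 without an expression filter, 212 and 134 by DESeq2, 584 and 857 by voom with sample weights, and 3 to 70 higher and 0 to 47 lower with 1 library left out (the most without NG2 replicate 5). With the replicate block they were 1 and 0. Same-numbered libraries correlated at -0.02 to 0.08 (0 of 5 over 0.1, 1 of 5 closest to its own number), so the numbers were not taken as pairs. For the members, 1 was higher by DESeq2, 1 higher and 3 lower by voom, and 0 under the other alternatives, the replicate block included. The cluster medians kept their sign over 19 alternatives (alpha 0.05 to 0.49, beta 0.13 to 0.49, gamma -0.21 to -0.05). Of 372 values for 20 named genes 346 kept direction and side of the threshold, 5 newly passed and 21 changed sign. Sign changes were, with the replicate block, Pcdha12 (-0.042) and Pcdhga7 (-0.019), and with library size only Pcdhga7 (-0.015). On log2(FPKM + 0.1) they were Pcdha12 (-0.023) and Pcdhga7 (-0.0075). With voom they were Pcdha8 (0.013), Pcdhac1 (-0.35), Pcdhb10 (-0.35) and Pcdhga7 (-0.40). With 1 library left out, ranges that crossed 0 were Pcdhga7 -0.22 to 0.12, Pcdha12 -0.0076 to 0.41, Pcdha8 -0.29 to 0.058, Pcdhac1 -0.027 to 0.29, Pcdhgb7 -0.35 to 0.0080 and Pcdhgc3 -0.055 to 0.17. The cause was not tested. Per kb of unshared exon, an alternative chosen after seeing the data, the NG2 shares were 13.9% for beta and 70.5% for gamma. Members with a few reads per library cannot show small differences at this depth.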
